A study of Mus musculus with 4 samples.

Results

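A set of 10 genes that the tumour suppressor p53 is known to activate was followed in mouse intestinal organoids that had lost the ubiquitin ligases Cbl and Cbl-b. The 10 genes, Cdkn1a, Ccng1, Phlda3, Zmat3, Eda2r, Aen, Trp53inp1, Plk2, Mdm2 and Bax, were found by symbol among the 31040 genes of the count matrices. They had been chosen by their higher counts in knockout than in control organoids of these same libraries. Their knockout and control values are therefore given as a description without a test, and tests are kept for the difference of the effect between cell classes and between cell cycle phases. These tests are not wholly free of that choice, for the reason given with the class test.

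RNA was measured in single cells by droplet sequencing, in which each unique molecular identifier (UMI) stands for 1 captured RNA molecule. Knockout organoids (2 libraries) carried Cbl flox/flox, Cbl-b flox/flox and R26Cre ERT2 and were replated with 4-hydroxytamoxifen at 400 nM for 3 days, which activates the Cre recombinase. Control organoids (2 libraries) carried the same alleles and had no 4-hydroxytamoxifen. The organoids came from intestinal crypts of 2 mice aged 10 weeks, and libraries with the same number share a mouse. No library had 4-hydroxytamoxifen with Cbl and Cblb intact, so the drug, Cre activity and loss of the genes cannot be told apart. Each group has n = 2 libraries, and an exact permutation test of 2 against 2 libraries cannot give a p under 0.333.

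p53 is a transcription factor that is held low by the ubiquitin ligase Mdm2 and accumulates when DNA is damaged or ribosome production or growth signalling is disturbed. It binds DNA as a tetramer at a site made of a pair of half-sites and raises genes that stop the cell cycle, promote apoptosis, repair DNA or restrain p53 itself. In the intestinal epithelium it is known above all for its activity in the dividing crypt cells after irradiation.

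In GRCm38 coordinates (gene annotation GENCODE M21), Cdkn1a lies at chr17:29090976-29100727, Ccng1 at chr11:40748552-40755311, Phlda3 at chr1:135766119-135769136, Zmat3 at chr3:32334792-32366014 and Eda2r at chrX:97333840-97377216. Aen lies at chr7:78895854-78911209, Trp53inp1 at chr4:11156431-11174379, Plk2 at chr13:110395046-110400844, Mdm2 at chr10:117688875-117710758 and Bax at chr7:45461697-45466898. The values below count UMIs assigned to the whole gene.

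Promoter sequences, 250 bases before to 50 bases after the start site, were available from RefSeq (GRCm38.p6) for 8 of the 10 genes, in 10 promoters. They were searched on both strands for the p53 consensus site of 20 bases, with at most 2 mismatches and the C and G at the core of each half-site kept (the consensus is its own reverse complement). A site was present in the promoters of Cdkn1a and Ccng1, each with 1 mismatch, and in 0.326% of all 32851 promoters. A perfect half-site of 10 bases was present in 6 of the 10 promoters, from 5 genes, and in 8.36% of all promoters. The sites that lie wholly upstream of the annotated gene, except a further Cdkn1a half-site, are shown with 20 bases on either side. They are shown, with the site in capitals, because they are matches to the p53 consensus near the start sites of these genes. The further Cdkn1a half-site is perfect and runs into the lower-case bases before the site shown. The first base of each site lies at −51 (Cdkn1a), −195 (Ccng1), −186 (Mdm2) and −201 (Bax), counted in bases from the RefSeq start site. The Cdkn1a window is chr17:29090908-29090967 on the plus strand, and the Ccng1 window is chr11:40755442-40755501 on the minus strand. Those of Mdm2 (chr10:117710915-117710964, minus) and Bax (chr7:45467070-45467119, minus) hold 1 half-site each.
Cdkn1a: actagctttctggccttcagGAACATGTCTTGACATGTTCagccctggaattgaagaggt
Ccng1: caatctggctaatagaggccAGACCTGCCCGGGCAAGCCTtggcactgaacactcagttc
Mdm2: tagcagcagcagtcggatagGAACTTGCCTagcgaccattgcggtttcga
Bax: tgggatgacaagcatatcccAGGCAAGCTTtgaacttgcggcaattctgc
A match is a description of the letters and not evidence of binding, and sites outside these windows were not searched.

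The knockout libraries had 28597336 and 35592468 UMIs in 1702 and 1983 barcodes, and the control libraries 27855911 and 22139560 UMIs in 1208 and 709 barcodes. The labels state a mean recovery of 1200 cells per channel. Filtering kept 1627 and 1902 knockout cells and 1148 and 682 control cells. Their median UMI count was 16071 and 17506 in knockouts and 19555 and 27458 in controls. At most 1 barcode was shared by any pair of libraries. Epithelial Epcam had 1553 to 2020 CPM (UMIs scaled to a library total of 1000000) in the 4 libraries. The summed markers of immune cells reached at most 8.18 CPM, those of endothelial cells 11.01 CPM and those of mesenchymal cells 0.174 CPM, and 5 of 5 erythroid markers were at 0. Cbl had 12.3 and 10.5 CPM in knockout 1 and 2, against 17.0 and 19.9 CPM in control 1 and 2, and Cblb had 3.35 and 0.464 CPM against 8.51 and 3.93 CPM. Both deleted genes were thus lower in the knockout of each mouse but still detected, Cblb more in knockout 1 than in knockout 2. The deleted exons are not given in the sources used here, and UMIs from parts of the transcript outside them would not report the deletion.

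Summed over all cells, each of the 10 genes had more CPM in the knockout of both mice, a direction shared by 37.5% of the 15072 genes with at least 10 counts. In 8 of the 10 genes both knockouts lay above both controls, against 21.1% of all genes. Neither count is evidence, since the genes were chosen for this difference. A sum over all cells does not separate more cells with a gene from more RNA per cell.

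The genes known for stopping the cell cycle or restraining p53 differed widely in size. Cdkn1a, which encodes the cyclin-dependent kinase inhibitor p21, had 121.6 and 217.7 CPM in knockout 1 and 2, against 120.8 and 173.5 CPM in control 1 and 2. An antisense gene, AC167363.2, overlaps Cdkn1a, and with the strand setting unknown the counts cannot be told apart. The groups overlapped, and knockout 1 was level with its own control (ratio 1.01, 95% counting interval 0.959 to 1.06). Ccng1, which encodes cyclin G1, a partner of a phosphatase that acts on Mdm2, had 58.7 and 86.7 CPM against 32.2 and 44.6 CPM. Mdm2, the ubiquitin ligase that removes p53, had 30.5 and 41.0 CPM against 26.3 and 28.8 CPM. Plk2, a polo-like kinase, had 21.1 and 32.8 CPM against 11.6 and 22.7 CPM. Ccng1 and Mdm2 did not overlap between the groups, while Plk2 was lower in knockout 1 than in control 2.

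Of the genes known from apoptosis and survival signalling, Phlda3 and Eda2r stood highest relative to control. Phlda3, whose product restrains the kinase Akt, had 24.8 and 38.8 CPM in knockout 1 and 2, against 6.01 and 9.83 CPM in control 1 and 2, a ratio of 4.12 in mouse 1 and 3.95 in mouse 2. Eda2r, a receptor of the tumour necrosis factor family, had 1.48 and 2.12 CPM against 0.403 and 0.686 CPM, and these rest on 41 and 73 UMIs against 11 and 15 UMIs. Zmat3, a zinc finger protein that binds RNA, had 12.5 and 16.8 CPM against 5.46 and 8.23 CPM. The groups did not overlap in any of these genes. Aen, an apoptosis-enhancing nuclease, had 55.4 and 55.3 CPM against 30.6 and 29.7 CPM, nearly the same in both mice. Bax, which permeabilises the mitochondrial membrane, had 259 and 363 CPM against 171 and 217 CPM. Gm45808 overlaps Bax on the same strand, so its counts are uncertain. Trp53inp1, a nuclear protein known from apoptosis and autophagy, had 9.03 and 12.9 CPM against 8.18 and 8.78 CPM, a gap in mouse 1 of ratio 1.10 (95% counting interval 0.918 to 1.33). Within the knockouts, and likewise within the controls, 9 of the 10 genes were higher in mouse 2 than in mouse 1, the exception being Aen.

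**Figure D1:**
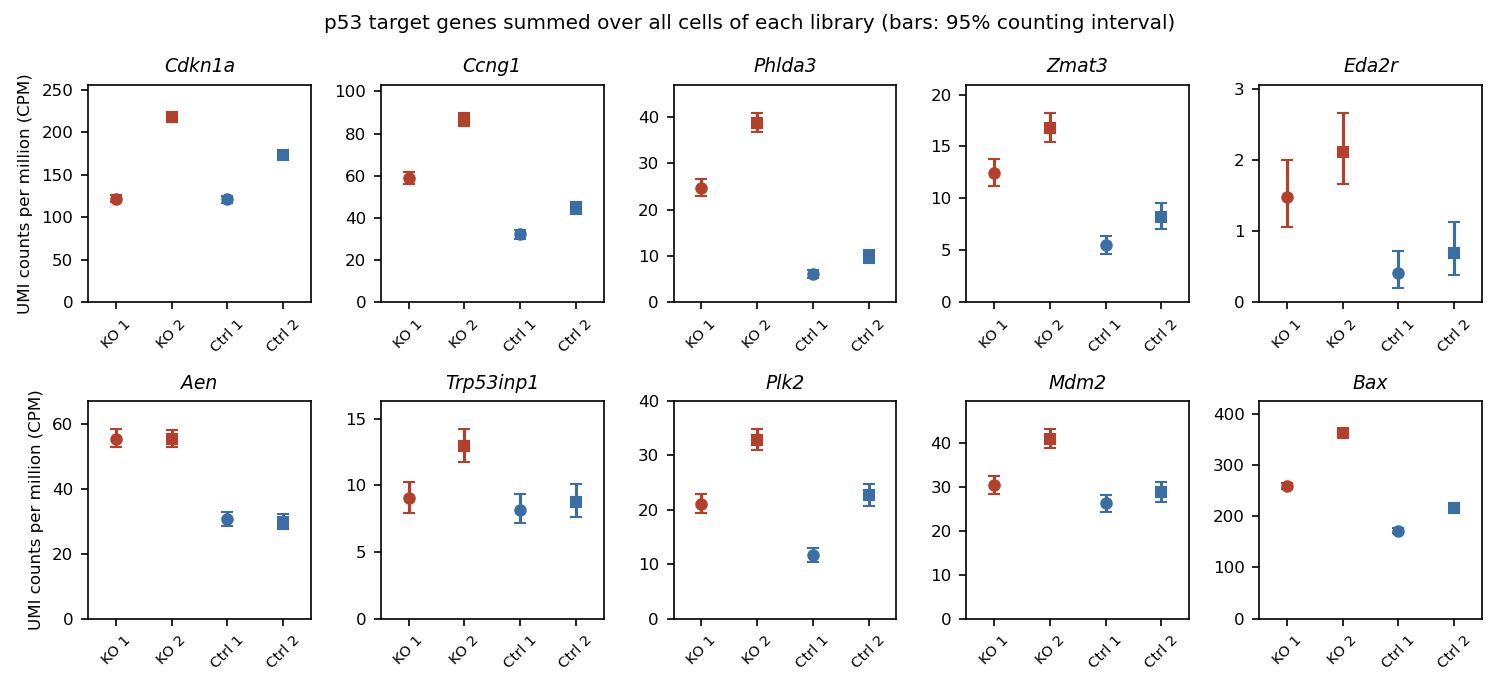
CPM of each gene, summed over all cells of a library (vertical axis, from 0), in knockout 1 and 2 (KO, red) and control 1 and 2 (Ctrl, blue), with circles for mouse 1, squares for mouse 2 and bars for the 95% counting interval. Phlda3 lay at 24.8 and 38.8 CPM in knockouts against 6.01 and 9.83 CPM in controls, whereas Cdkn1a was level in mouse 1.

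To ask in which cell types the difference lay, cells were clustered without the p53 genes among the clustering genes, and clusters were called X-like from marker genes. UMIs were then summed per library and class for the 7 classes that had 10 cells or more in each library. The classes were rebuilt here and may differ from those of the study. Cycling-like cells, dividing crypt cells that express Mki67 and Top2a, made up 35.4% and 33.5% of the cells in knockout 1 and 2 and 28.6% and 22.6% in control 1 and 2. Enterocyte-like cells, the absorptive lineage, made up 12.7% and 15.1% in knockouts against 20.6% and 38.4% in controls. Stem-like cells made up 17.7% and 5.36% against 12.5% and 2.20%, with 15 cells in control 2. The clusters that hold a class also shifted. Goblet-like cells came mostly from cluster c13 in knockouts (97 and 183 cells, with 57 and 84 in c14) and mostly from c14 in controls (95 and 51 cells, with 83 and 37 in c13). Among cycling-like cells, c8 was the largest cluster in knockout 1, c1 in knockout 2 and control 1, and c1 and c6 had 49 cells each in control 2. The largest enterocyte-like cluster was c0 in knockout 1, c15 in control 1 and c10 in both libraries of mouse 2. The fetal-like class, which expresses Clu, Anxa1 and Ly6d, was led by the goblet genes Zg16 and Clca1 and had only 12 and 15 cells in knockout 1 and control 1.

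In cycling-like cells all 10 genes were higher in the knockout of both mice, where 37.9% of all genes were. The count was 9 of 10 in goblet-like cells (40.5% of all genes), 8 of 10 in stem-like cells (34.0%) and 7 of the 9 with at least 10 counts in Paneth-like cells (31.0%). It was 5 of 9 in enterocyte-like cells (23.7%), 3 of 9 in enteroendocrine-like cells (32.3%) and 5 of 10 in fetal-like cells (22.7%). Both knockouts lay above both controls in 9 of the genes in cycling-like cells (23.7% of all genes), 8 in goblet-like (29.1%), 6 in stem-like (22.6%), 5 in Paneth-like (19.8%), 4 in enterocyte-like (10.5%), 3 in enteroendocrine-like (21.9%) and 4 in fetal-like cells (14.0%). These counts come from the contrast that chose the genes, and classes with few cells have few counts, so the counts are not compared between classes.

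Ccng1 and Trp53inp1 had the smallest p of the 10 genes in the test between classes given below. In cycling-like cells Ccng1 had 58.8 and 87.5 CPM in knockout 1 and 2, against 26.4 and 33.9 CPM in control 1 and 2. Its enterocyte-like level was 46.4 and 53.6 CPM against 39.9 and 49.0 CPM, so the groups there overlapped and lay close together. Enteroendocrine-like cells went opposite ways in the mice, with 59.7 and 44.0 CPM in knockouts against 31.5 and 73.0 CPM in controls. Trp53inp1 in cycling-like cells had 5.02 and 8.36 CPM in knockouts against 1.69 and 2.81 CPM in controls. In goblet-like cells it had 15.02 and 12.97 CPM against 18.3 and 15.2 CPM, and in Paneth-like cells 15.7 and 12.9 CPM against 34.2 and 14.7 CPM. Trp53inp1 was thus lower in the knockout of both mice in goblet-like and Paneth-like cells, and no other gene of the set was lower in both mice in any of the 7 classes. The 95% counting interval of the ratio lay below 1 in Paneth-like cells of mouse 1 (0.244 to 0.827) and included 1 in Paneth-like cells of mouse 2 and in goblet-like cells of both mice.

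The difference of the knockout effect between classes was tested in 1 model over the 7 classes with the library as a block (edgeR quasi-likelihood F test, Benjamini-Hochberg adjustment over 12215 genes). It passed for 0 of the 10 genes and for 0.0409% of all genes (5 genes, with 524 at an unadjusted p under 0.05). Ccng1 had an adjusted p of 0.559 and Trp53inp1 of 0.542 in this edgeR fit. When a term for the mouse in each class was added as a replicate block, since same-numbered libraries share a mouse, edgeR called 1.67% of all genes and 2 of the 10. These were Trp53inp1 (adjusted p = 0.00479) and Ccng1 (adjusted p = 0.00670). In that fit the log2 effect of Trp53inp1 in cycling-like cells (a contrast that passed, as higher, for 0.0246% of all genes) exceeded the mean of the other classes by 1.41 ± 0.30 (SE, edgeR adjusted p = 0.0323). Ccng1 exceeded it by 0.87 ± 0.23 in fetal-like cells (edgeR adjusted p = 0.144) and by 0.65 ± 0.16 in cycling-like cells (edgeR adjusted p = 0.117). It differed from it by −0.60 ± 0.33 in enteroendocrine-like cells (edgeR adjusted p = 0.753) and by −0.58 ± 0.19 in enterocyte-like cells (edgeR adjusted p = 0.247), where 0.0491% of all genes passed as lower, so no single class passed for Ccng1. Cycling-like cells held 49.4% and 43.7% of the UMIs in knockout 1 and 2, and 41.2% and 35.7% in control 1 and 2. The genes were chosen on sums over all cells, so the choice can favour genes with a large effect in cycling-like cells.

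The other 8 genes did not pass in either fit, which does not show that they respond alike in all classes. Bax had 270.6 and 432.5 CPM in knockouts against 178.7 and 271.5 CPM in controls in cycling-like cells, and 212.7 and 264.0 CPM against 139.8 and 167.8 CPM in goblet-like cells. The groups overlapped in cycling-like cells, where control 2 was just above knockout 1, and did not in goblet-like cells. Its effect in cycling-like cells differed from the mean of the other classes by 0.17 ± 0.12 on the log2 scale with the replicate block. Phlda3 in cycling-like cells had 26.7 and 45.6 CPM in knockouts against 5.25 and 11.3 CPM in controls, and in stem-like cells 31.7 and 24.7 CPM against 14.6 and 10.5 CPM. In Paneth-like cells Phlda3 had 9 and 17 UMIs in knockouts and 0 in both controls.

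**Figure D2:**
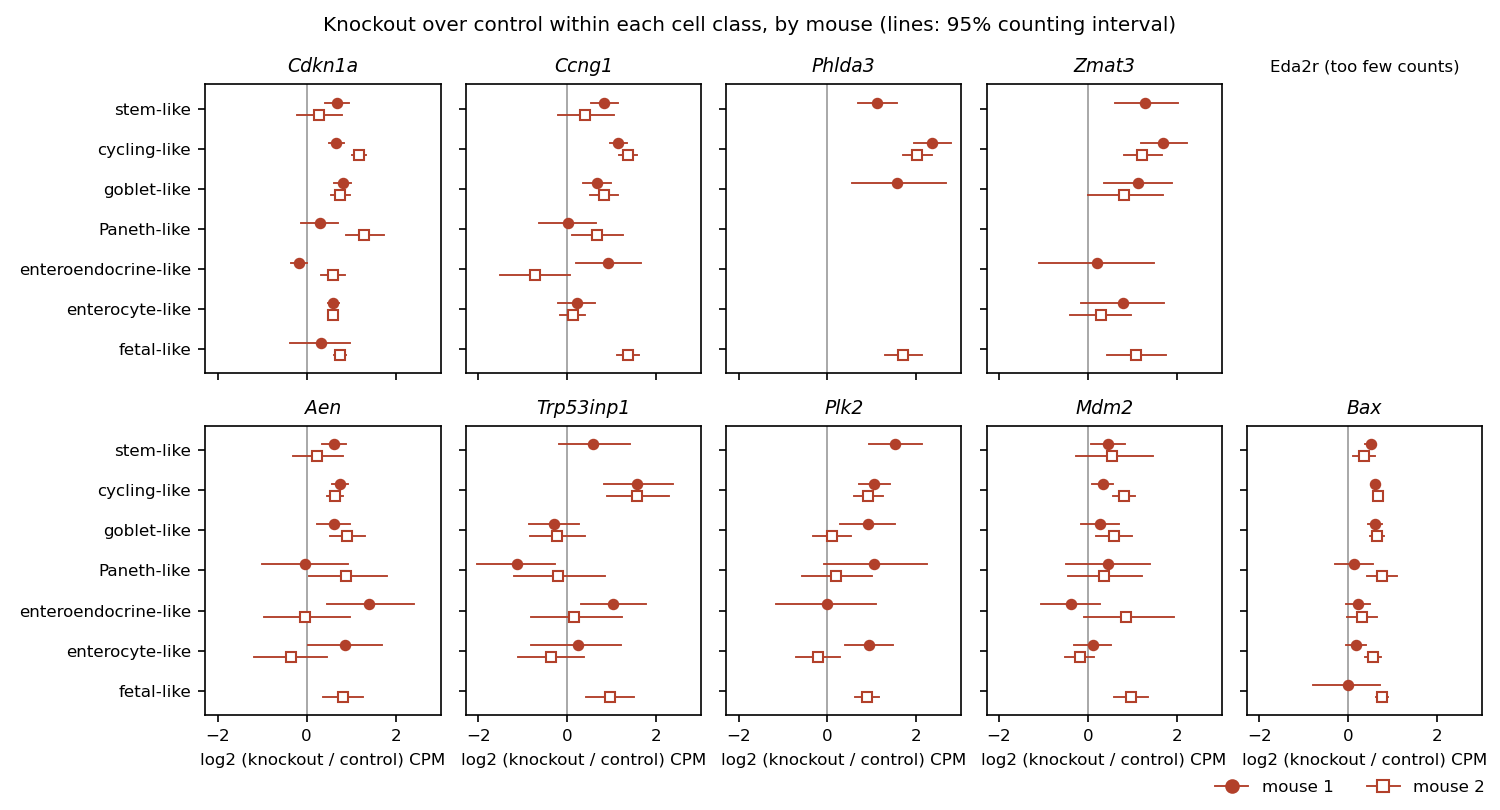
Log2 ratio of knockout over control CPM (horizontal axis) for each gene within each class, for mouse 1 (filled circles) and mouse 2 (open squares) with 95% counting intervals, where both libraries have at least 10 UMIs. Trp53inp1 lies right of 0 in cycling-like cells and left of 0 in goblet-like and Paneth-like cells in both mice, and Eda2r has too few UMIs to be drawn.

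The Cdkn1a values within classes differed from the sums over all cells. In enterocyte-like cells its level was 580.2 and 609.4 CPM in knockout 1 and 2, against 384.0 and 402.3 CPM in control 1 and 2. Cycling-like cells had 62.0 and 115.2 CPM in knockouts against 38.9 and 50.8 CPM in controls. The groups did not overlap in either class, although they overlapped over all cells. In stem-like cells they overlapped, with 65.4 and 91.2 CPM in knockouts against 40.7 and 75.4 CPM in controls. In enteroendocrine-like cells Cdkn1a was lower in the knockout of mouse 1 and higher in that of mouse 2, with 605.7 and 627.2 CPM in knockouts against 685.1 and 416.6 CPM in controls. The all-cell difference was split, in each mouse, into a part within the 17 clusters and a part from their shares of the UMIs. In mouse 1 the Cdkn1a difference of 0.753 CPM was the sum of 42.9 CPM within clusters and −42.2 CPM from shares. In mouse 2 the difference of 44.3 CPM was the sum of 110.4 CPM within clusters and −66.1 CPM from shares. Over the 10 genes, the median part within clusters was 101% of the difference. Aen had the smallest such part of the 10 in each mouse, 80.9% in mouse 1 and 71.6% in mouse 2. With the clusters of low depth left out (c3, c7, c9 and c16, an alternative chosen after seeing the data), Cdkn1a was no longer higher in mouse 1 over all cells (123.0 CPM in knockout 1, against 124.4 CPM in control 1) and the count of genes higher in both mice was 9 of 10.

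**Figure D3:**
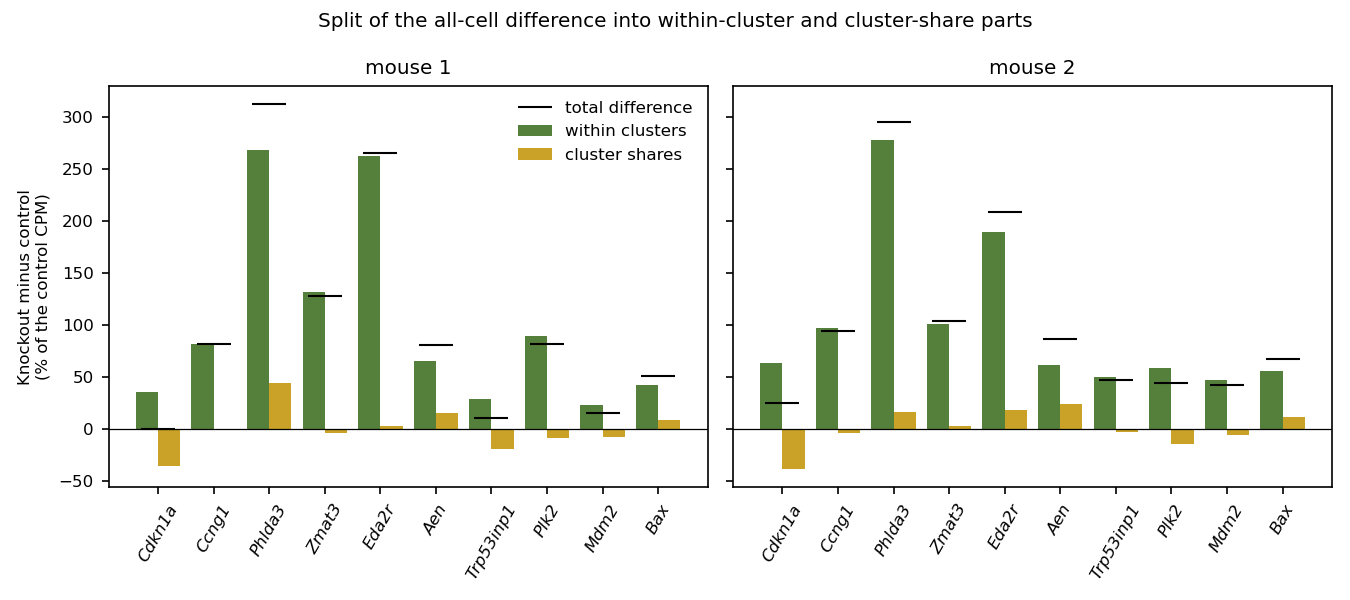
Knockout minus control difference of each gene over all cells as a percentage of the control CPM of the same mouse (vertical axis), with green bars for the part within clusters, yellow bars for the part from cluster shares and black lines for the total. The Cdkn1a parts cancel in mouse 1, and in every gene the part within clusters is above 0 in both mice.

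One unnamed cluster, c4, had Phlda3 second among its leading genes, after Psph. No gene of the set was used for clustering. The leading genes were ranked over knockout and control cells together, so the rank is not free of the choice of Phlda3 for its rise in knockouts. Cluster c4 held 47 and 152 cells in knockout 1 and 2, against 25 and 34 cells in control 1 and 2. As shares of the kept cells these were 2.89% and 7.99% against 2.18% and 4.99%, which overlapped between the groups. Within c4, Phlda3 had 47.1 and 70.6 CPM in knockouts against 20.3 and 22.2 CPM in controls. Trp53inp1 had 10.3 and 19.2 CPM against 2.14 and 2.61 CPM, with only 2 and 4 UMIs in the controls. All 9 genes with at least 10 counts in c4 were higher in the knockout of both mice, where 33.0% of all genes were, and 7 of them did not overlap between the groups (23.1% of all genes). These counts come from the contrast that chose the genes. At Leiden resolution 2, a cluster called fetal-like was led by Phlda3, with Bax and Ccng1 also among its leading genes. It held 26 and 132 cells in knockout 1 and 2, against 3 and 8 cells in control 1 and 2. As shares of the kept cells these were 1.60% and 6.94% against 0.261% and 1.17%. Its leading genes were ranked in the same way as those of c4.

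Cells were also called G1-like, S-like or G2M-like from lists of S and G2/M genes that hold none of the 10, after thinning each cell to 5000 UMIs. G1-like cells made up 31.7% and 39.8% in knockout 1 and 2 and 48.9% and 63.1% in control 1 and 2. S-like cells made up 22.5% and 16.5% against 14.0% and 8.67%, and G2M-like cells 45.8% and 43.7% against 37.2% and 28.2%. None of these shares overlapped between the groups, and each had a two-sided exact permutation p of 0.333, the smallest this design allows. Without thinning the G1-like shares were 37.6% and 42.7% against 51.7% and 65.1%, the S-like shares 21.8% and 16.2% against 13.3% and 8.94% and the G2M-like shares 40.6% and 41.0% against 35.0% and 26.0%. Phase and class are not separate: 37.9% of G1-like cells were enterocyte-like, and 72.3% of G2M-like cells were cycling-like. Of the S-like cells, 39.2% were stem-like, 27.8% cycling-like and 18.7% in unnamed clusters. The stem-like cluster, c2, had Ung, Cdca7, Mcm2 and Mcm6 of the S list among its leading genes. The part of free RNA in the phase calls was not tested.

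All 10 genes were higher in the knockout of both mice in each phase, where 34.6% (G1-like), 33.7% (S-like) and 35.2% (G2M-like) of all genes were. This count and the next come from the contrast that chose the genes. Both knockouts lay above both controls in 7 of the 10 in G1-like (15.1% of all genes), 10 in S-like (21.3%) and 9 in G2M-like cells (21.9%). The 10 in S-like cells include Eda2r, with 1.78 and 0.927 CPM in knockout 1 and 2 against 0.925 and 0.867 CPM in control 1 and 2. Those values rest on 11 and 5 UMIs against 4 and 2 UMIs, too few to order the libraries. Cdkn1a in G1-like cells had 285.6 and 415.2 CPM in knockout 1 and 2, against 244.9 and 286.3 CPM in control 1 and 2. In S-like cells it had 83.5 and 131.2 CPM against 42.5 and 76.8 CPM, and in G2M-like cells 69.5 and 130.5 CPM against 56.5 and 57.7 CPM. Its groups did not overlap in S-like or G2M-like cells and overlapped in G1-like cells, where control 2 was just above knockout 1. Phlda3 had 14.7 and 31.3 CPM against 3.71 and 7.85 CPM in G1-like cells, 28.7 and 27.4 CPM against 9.02 and 9.11 CPM in S-like cells and 27.0 and 46.5 CPM against 6.81 and 12.7 CPM in G2M-like cells. Aen in G1-like cells had 29.7 and 33.2 CPM in knockouts against 15.4 and 17.0 CPM in controls, and in S-like cells 63.4 and 64.9 CPM against 44.2 and 44.7 CPM. Mdm2 in G1-like cells had 33.9 and 46.0 CPM against 33.1 and 34.1 CPM, so that mouse 1 was level there, while S-like cells had 32.0 and 32.6 CPM against 19.0 and 20.4 CPM.

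The knockout effect on these genes was not shown to differ between phases. The edgeR quasi-likelihood F test over 12460 genes called 0 of the 10 genes and 0 genes in all, with 302 genes at an unadjusted p under 0.05, and DESeq2 also called 0. With the replicate block edgeR called 0.193% of all genes and again 0 of the 10. The smallest adjusted p among the 10 in that edgeR fit was 0.337 (Aen). Without the block, its log2 effect in G1-like cells differed from the mean of the other phases by 0.37 ± 0.13 (SE). On the same scale the difference was −0.40 ± 0.21 for Cdkn1a and 0.17 ± 0.15 for Bax. Within cycling-like cells alone, all 10 genes were higher in both mice in G2M-like cells (35.7% of all genes), and so were all 9 with at least 10 counts in S-like cells (34.3%). Both knockouts lay above both controls in 9 of 10 and 8 of 9 of these (22.5% and 22.9% of all genes). The counts within cycling-like cells also come from the contrast that chose the genes.

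**Figure D4:**
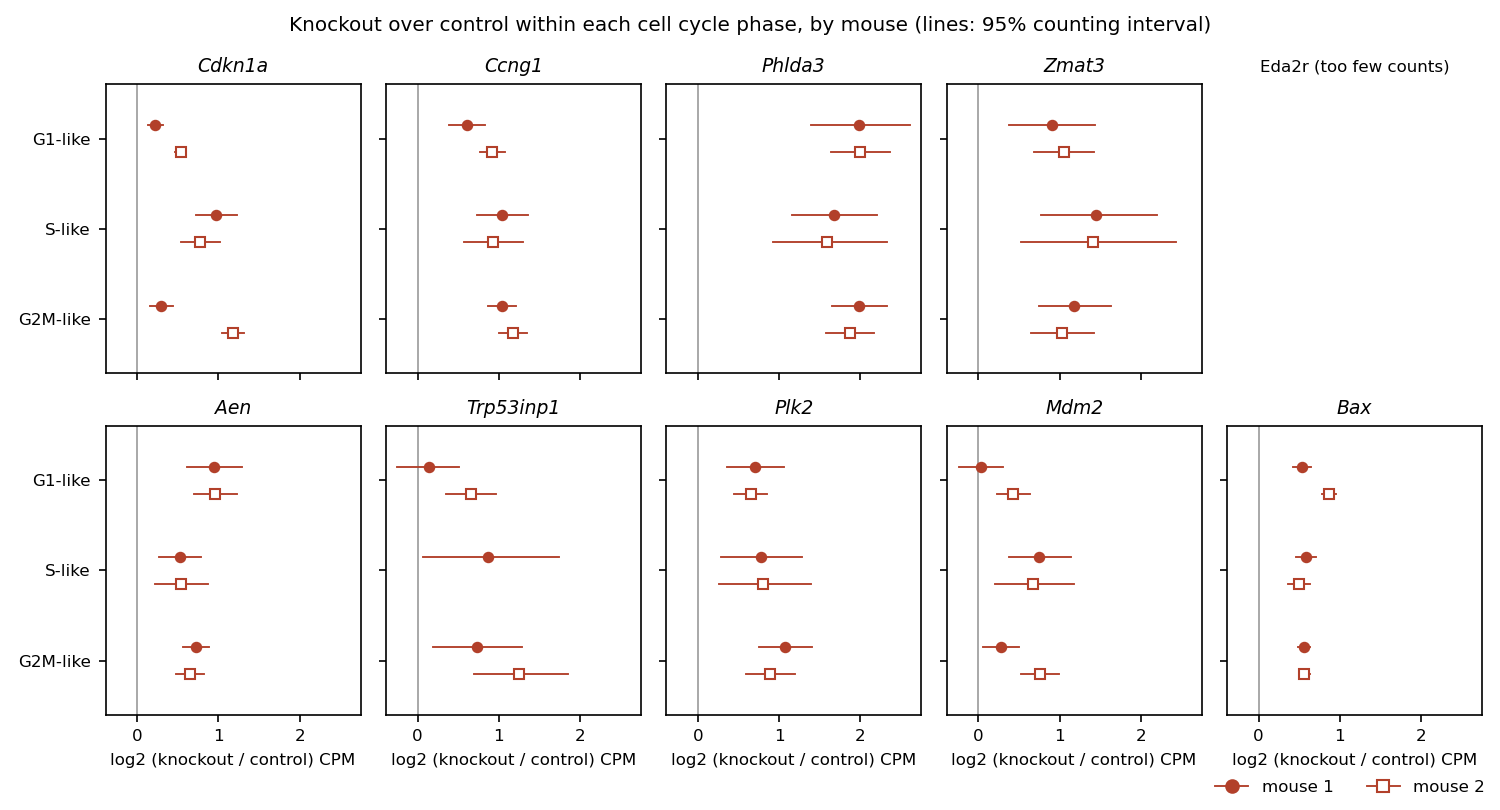
Log2 ratio of knockout over control CPM (horizontal axis) for each gene within each phase, for mouse 1 (filled circles) and mouse 2 (open squares) with 95% counting intervals, where both libraries have at least 10 UMIs. Every drawn point lies right of 0, with Phlda3 farthest, and Eda2r has too few UMIs to be drawn.

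After thinning, a larger share of knockout than of control cells had several of the genes at once. The genes were chosen for higher counts in these same knockout libraries, so the per-cell values are a description. With each cell thinned to 5000 UMIs, which left out 430 and 318 knockout cells and 190 and 105 control cells that were shallower, 4.34% and 8.65% of the cells in knockout 1 and 2 had UMIs of at least 5 of the 10 genes (52 and 137 cells). In control 1 and 2 the share was 0.626% and 1.21% (6 and 7 cells). The 95% Clopper-Pearson intervals were 3.26% to 5.66% and 7.31% to 10.1% in knockouts and 0.230% to 1.36% and 0.489% to 2.48% in controls. Cells with 0 or 1 of the genes made up 47.2% and 33.6% in knockouts and 57.2% and 49.6% in controls. Without thinning the share with at least 5 was 25.1% and 35.8% against 22.0% and 38.3% (knockout higher in mouse 1, lower in mouse 2). Those shares also include the shallower cells that thinning left out, and they are not matched for depth. The median UMI count was 16071 and 17506 in knockout 1 and 2, against 19555 and 27458 in control 1 and 2. The part of depth in the shares without thinning was not tested.

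The cells with at least 5 genes were found in several classes. Among cycling-like cells they made up 3.97% and 9.32% in knockouts and 0.678% and 0.699% in controls. In fetal-like cells of mouse 2 they made up 22.1% in the knockout (27 of 122 cells) and 3.33% in the control (2 of 60 cells). In enterocyte-like cells the share was 2.86% and 0.948% in knockouts and 0.543% and 0.485% in controls, which is 3 and 2 cells against 1 and 1. The tenth of cells richest in these UMIs held 33.9% and 31.0% of them in knockouts and 32.7% and 28.8% in controls.

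Single genes differed in how far the share of cells followed the CPM. Phlda3 was detected in 8.86% and 12.9% of thinned knockout cells and in 2.61% and 3.29% of control cells, with 1.70% in enterocyte-like cells, its lowest class. Without thinning, where depth was not matched, these shares were 18.9% and 25.4% in knockouts and 10.02% and 14.1% in controls. Aen was detected in 20.9% and 20.6% against 13.4% and 12.8%, with 3.54% in its lowest class. Cdkn1a was detected in 32.4% and 48.5% of knockout cells and 33.0% and 49.4% of control cells, a gap within the counting intervals, and since it goes against the CPM no order is read from it. Eda2r was detected in 0.919% and 0.884% against 0.209% and 0.347%, with 0 of 706 enterocyte-like cells, which allows a share of up to 0.425%. No cell type known to lack these genes was available to measure free RNA, so the lowest class stands in for it.

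**Figure D5:**
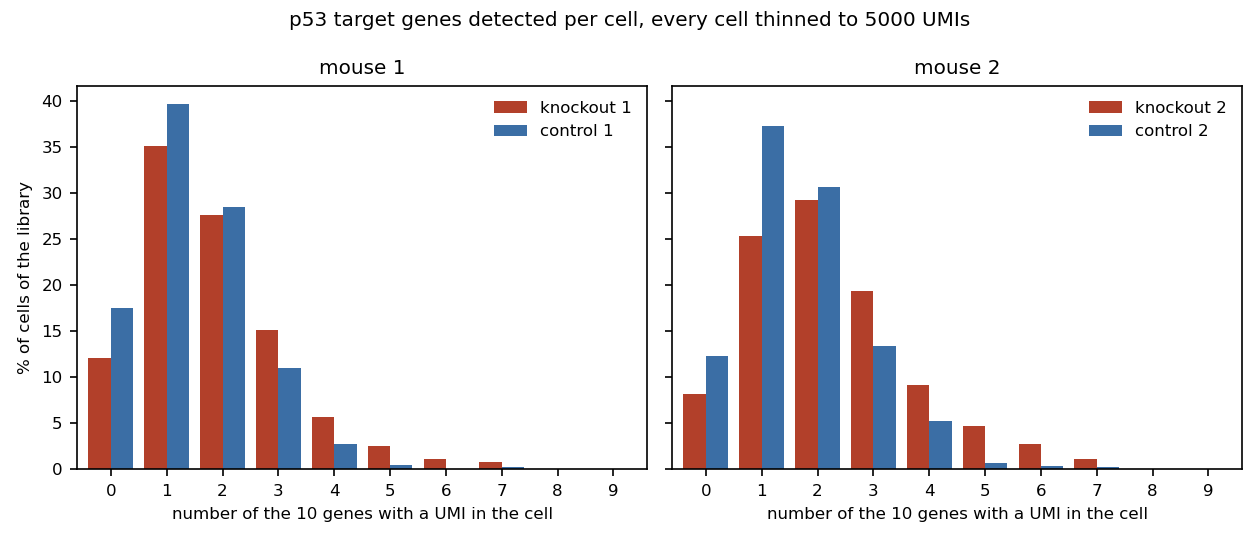
Share of cells (vertical axis, %) by the number of the 10 genes with at least 1 UMI in the cell (horizontal axis), after thinning to 5000 UMIs, in knockouts (red) and controls (blue) of mouse 1 and mouse 2. The knockout bars exceed the control bars at 3 to 7 genes in both mice.

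Other genes of the p53 pathway differed in both directions, and their calls rest on the replicate block. Trp53 itself had 147 and 113 CPM in knockout 1 and 2, against 125 and 94.3 CPM in control 1 and 2 (log2 fold change 0.21 ± 0.08, edgeR adjusted p = 0.123 with the replicate block). Its ratio of knockout over control in mouse 1 and 2 was 1.06 and 0.958 in S-like cells and 1.03 and 0.994 in G2M-like cells. In G1-like cells the ratio was 1.40 and 1.10. The part of cell makeup in the all-cell difference of Trp53 was not tested. Of 48 further p53 targets, 43 were tested over all cells. With the group as the only term edgeR called 0 of them and 0 of 13246 genes, with 1138 genes at an unadjusted p under 0.05, and DESeq2 called 24 genes higher and 107 lower. With the replicate block edgeR called 9 of the 43 higher and 5 lower, against 4.1% of all genes higher and 7.78% lower. The median log2 fold change of the 43 was 0.04, against −0.01 for all genes.

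Among the further targets that rose with the replicate block, Ddit4l, a paralogue of the mTOR inhibitor Ddit4, had 3.63 and 4.96 CPM in knockouts against 0.440 and 0.549 CPM in controls (3.06 ± 0.28, edgeR adjusted p = 0.00404). Tnfrsf18, a receptor of the tumour necrosis factor family, had 5.72 and 8.23 CPM against 2.27 and 1.97 CPM, and Gdf15, a stress-induced secreted factor, had 28.9 and 28.4 CPM against 14.5 and 16.4 CPM. Gtse1, Psrc1 and Pvt1 rose as well, by 0.93, 0.78 and 0.77 on the log2 scale. Gtse1 and Psrc1 are genes of dividing cells, and cycling-like cells were more frequent in the knockouts. The part of cell makeup in their change was not tested. Pmaip1 (Noxa, pro-apoptotic) fell, with 17.6 and 16.6 CPM in knockouts against 22.8 and 35.6 CPM in controls. Btg2, an antiproliferative gene, fell with 129.9 and 113 CPM against 183 and 187 CPM, and Ccng2, Sfn and Thbs1 fell by 0.69, 0.53 and 0.51 on the log2 scale. Bbc3 (Puma, pro-apoptotic), the death receptor gene Fas and the adhesion gene Perp did not pass, with log2 fold changes of 0.45 ± 0.16, −0.59 ± 0.22 and −0.10 ± 0.09 in the same fit. Of 19 tested p53 regulators 1 rose with the block, the checkpoint kinase Chek1 (0.48 ± 0.11, edgeR adjusted p = 0.0473). Mdm4, a partner of Mdm2, had 0.25 ± 0.09 and did not pass. All values in this paragraph are sums over all cells, where enterocyte-like cells were less frequent and cycling-like cells more frequent in the knockouts. The part of cell makeup in these falls and rises was not tested.

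The genes outside the set whose log2 CPM followed the mean of the 10 most closely over the 28 library and class sums were Crip2 (Pearson r = 0.81), Fam212b (0.75), Atp6v1f (0.73), Pcbd1 (0.71) and Adrm1 (0.71). Points of the same library share cells and depth, so these are descriptions. Among the 10, the correlation with their own mean ranged from 0.40 for Trp53inp1 to 0.84 for Zmat3.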

How the data were processed

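Deposited values are UMI counts per gene and cell barcode. The submitters' processing notes name Cell Ranger 3.0.1 and mm10 for them, and the matrices carry version 3.0.0, per the file headers. The annotation release and strand setting are not given in the sources used here. Mitochondrially encoded genes are not among the features, so their share could not be used as a filter.

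Cells with under 500 genes were left out (173 of 5602 barcodes). Scrublet's automatic threshold marked 0.321% of barcodes and was not used. Instead the highest doublet scores were removed at 0.8% per 1000 barcodes (70 barcodes). The 5359 remaining cells were clustered with scanpy 1.11.5 (2000 variable genes without the p53 lists, 30 principal components, Leiden resolution 1, 17 clusters). A cluster was named only with at least 3 detected markers and a score of at least 0.5. Counts were summed per library, class or phase and tested two-sided with edgeR 4.0.16 (quasi-likelihood, TMM, filterByExpr, Benjamini-Hochberg adjusted p under 0.05). DESeq2 1.42.0 and limma voom 3.58.1 were alternatives. SEs were taken from the fold change and the F statistic. The edgeR fits, with and without the replicate block, were tested on simulated data, and the DESeq2 and voom fits were not. The simulated points were independent, with a fixed spread and no mouse effect, unlike the paired libraries here. Without the block, the class test recovered 31.3% of 2-fold changes placed in cycling-like cells. The phase test recovered 41.8% of those placed in G2M-like cells. With the block these were 26.9% and 37.3%. Without the block, each recovered 1.49% of 1.5-fold changes. Counting intervals are 95%, and they and the Clopper-Pearson intervals cover counting error only.

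The members and lists were chosen with earlier results of these data known. All 10 were named, with those genes of the further lists that the replicate block called (at most 6 per direction and list, by size) and, always, Trp53, Mdm4, Bbc3, Pmaip1, Gdf15, Perp and Fas. The design text gives 2 mice, and the names of the deposited files tag knockout 1 and control 1 as 1 mouse and knockout 2 and control 2 as the other. The deviations of the paired libraries from their group means had a correlation of 0.660 over 13246 genes. The main fits have no mouse term, as planned, and values with the replicate block appear where calls change. Over all cells without the block, p-values measure the spread between 2 libraries per group. With the block they measure how far the difference varies between the 2 mice, with 1 residual degree of freedom over all cells. In each edgeR fit the variance of a gene is also drawn towards a trend over all genes. The p-values thus rest in part on the spread of other genes, and not on a gene's own libraries alone. The class and phase models hold a term for each library. Their p-values rest on the spread left between classes or phases within libraries, again drawn towards the trend over all genes.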

Additional observations from a re-analysis of the deposited data

Results flagged for a closer look

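The knockout effect on Trp53inp1 differed between the 7 cell classes in the edgeR F test with the replicate block (adjusted p = 0.00479). The class that stood apart from the mean of the others was the cycling-like one, with 5.02 and 8.36 CPM in knockouts against 1.69 and 2.81 CPM in controls. The genes were chosen on sums over all cells, where cycling-like cells held more UMIs than any other class. The knockout effect on Ccng1 differed between classes in the same edgeR fit (adjusted p = 0.00670). Neither passed without the replicate block (adjusted p = 0.542 for Trp53inp1 and 0.559 for Ccng1, edgeR).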

How the results depend on the processing

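Over all cells, edgeR with the group alone called 0 genes, the replicate block 543 higher and 1030 lower, DESeq2 24 and 107, and DESeq2 with the block 242 and 630. Over the 2 further p53 lists together the block called 10 higher and 5 lower, DESeq2 3 and 1, and DESeq2 with the block 8 and 4. The count of genes whose effect differed between classes was 5. It was 204 with the replicate block, 288 with no filter on low counts, 40 with DESeq2, 37 with limma voom, 1 with no doublet removal, 14 with all genes allowed as clustering genes, 10 at Leiden resolution 0.5, 38 at resolution 2 and 2 for classes of at least 20 cells, an alternative chosen after seeing the data. Leaving out 1 library gave 4 to 80 genes (80 without control 1, 65 without control 2 and 9 without knockout 2). Of the 10 p53 targets, 0 were called in the class test, 2 with the block and 3 with no filter (Ccng1, Phlda3 and Trp53inp1). Between phases, 0 genes were called, 24 with the block, 5 in cycling-like cells alone and 0 to 3 without 1 library (3 without knockout 1, 2 without knockout 2), and 0 of the 10 under each of these. The all-cell log2 fold change of Cdkn1a, 0.17, ranged from −0.37 (without knockout 2) to 0.57 (without knockout 1), with −0.09 without control 1 and 0.50 without control 2. The median difference in the share of cells with a UMI, 3.14 percentage points, was 4.86 at 10000 UMIs and 1.04 with no thinning. The median part within clusters, 101%, was 94.997% at resolution 2. The cause of these changes was not tested. With 2 libraries per group, 12 residual degrees of freedom remained in the class model and 4 in the phase model (6 and 2 with the block), and control 2 had only 15 stem-like and 11 enteroendocrine-like cells.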
